A study of Mus musculus with 6 samples.

Results

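The cyclin-dependent kinase inhibitors are a group of 7 mouse genes, the 3 CIP/KIP genes Cdkn1a, Cdkn1b and Cdkn1c and the 4 INK4 genes Cdkn2a, Cdkn2b, Cdkn2c and Cdkn2d. They were chosen by family membership, and all 7 were among the 22180 genes measured, each by 1 probe set, a group of array probes summarised to 1 value. Expression was profiled in C2C12, a mouse myoblast line that leaves the cell cycle and fuses into myotubes when serum is withdrawn, and the title of the study asks about huntingtin in muscle differentiation. In 3 arrays the cells had received an siRNA pool against Htt, the mouse huntingtin gene; these carry the label HTT KO, although the protocol describes siRNA. In the other 3 the cells had received scramble siRNA. Beyond this the labels give only C2C12 cells, grown in standard media. They do not state when the cells were harvested or whether they were growing or differentiating. Nor do they say whether replicates were separate cultures, so p-values here rest on a spread between arrays that may be technical only.

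Cyclin-dependent kinases drive the cell cycle when a cyclin binds them, and the inhibitor proteins hold them back. INK4 proteins bind the kinases CDK4 and CDK6 and keep D-type cyclins off them, which leaves the retinoblastoma protein unphosphorylated and E2F transcription factors restrained. CIP/KIP proteins bind complexes of cyclins E, A and B with CDK2 and CDK1. In differentiating myoblasts, withdrawal from the cell cycle goes along with induction of p21, the product of Cdkn1a, by MyoD, and mouse embryos lacking p21 together with p57, the product of Cdkn1c, fail to form muscle properly.

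The values are deposited log2 expression values from RMA, a method that corrects background and equalises the distribution of the arrays, and differences are Htt siRNA minus scramble from limma, fitted over all genes, with the standard error (SE) and Benjamini-Hochberg adjusted p. Htt stood at 4.49, 4.47 and 4.65 in the Htt siRNA arrays, against 5.59, 5.60 and 5.72 in the scramble arrays, with no overlap; its log2 fold change was -1.10 ± 0.09 (SE), and its adjusted p in limma was 0.0559. In limma, 0 of 22180 genes passed an adjusted p of 0.05, which is 0.0% of genes, while 10.9% had an unadjusted p under 0.05 (5.72% higher and 5.14% lower) and 16.0% had groups that did not overlap. The number of genes passing was 540 without Htt siRNA replicate 2 and at most 1 without any other array. Of 8 myoblast markers, 7 had positive log2 fold changes (median 0.23), 2 of them at an unadjusted p under 0.05; the intermediate filament gene Des stood at 10.25, 10.31 and 10.35 with Htt siRNA, against 10.13, 9.92 and 10.24 with scramble.

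None of the 7 inhibitors passed the adjusted threshold of limma over all genes. Their adjusted p-values lay between 0.594 and 0.881. Of the 7, 0 had an unadjusted p under 0.05, against 10.9% of all genes. The arrays of the groups overlapped for all 7, and 16.0% of all genes had groups that did not. With only 7 genes, counts of 0 lie near these shares. All 3 CIP/KIP genes had positive log2 fold changes, between 0.16 and 0.20 (median 0.19), while 3 of the 4 INK4 genes had negative ones, between -0.42 and -0.06, with Cdkn2a at 0.04 (INK4 median -0.18). The median over all genes was 0.03, and 12919 of the 22180 genes had positive and 9261 negative values. The 95% confidence interval of the fold change lay inside a 2-fold difference in both directions for 6 of the 7, the exception being Cdkn2d, and for 96.5% of all genes.

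**Figure D1:**
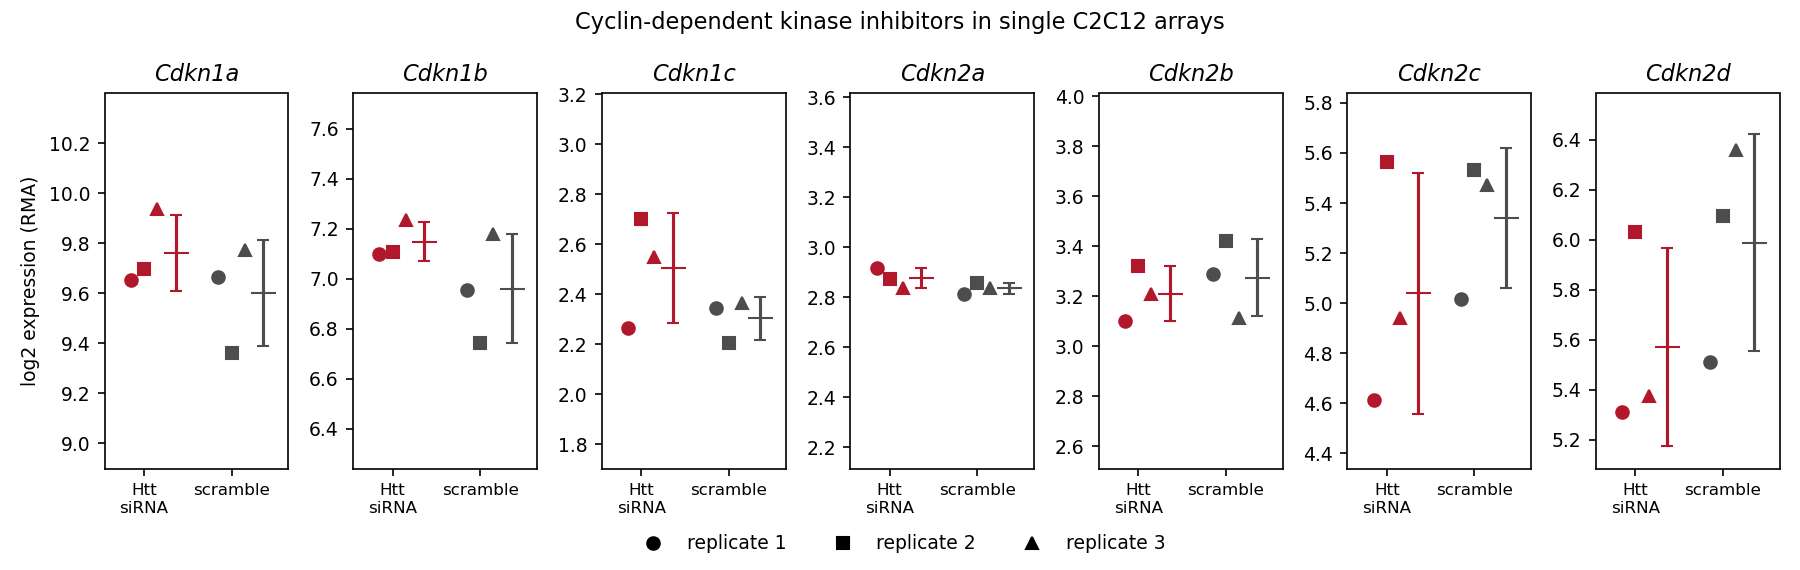
Log2 RMA expression of the 7 inhibitors in each array, with Htt siRNA on the left of each panel and scramble on the right; marker shapes give the replicate number and bars the mean ± SD of 3 arrays, and every panel spans the same 1.5 log2 units. The groups overlap in all 7 panels, and Htt siRNA replicate 2 lies apart from the other Htt siRNA arrays for Cdkn2c and Cdkn2d.

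Cdkn1a encodes p21, the CIP/KIP inhibitor that p53 and MyoD induce. Its probe set stood at 9.65, 9.70 and 9.94 in the Htt siRNA arrays, against 9.66, 9.36 and 9.77 in the scramble arrays. The highest array was Htt siRNA replicate 3 and the lowest scramble replicate 2, and the other 4 arrays interleaved. The mean was 9.76 ± 0.15 with Htt siRNA and 9.60 ± 0.21 with scramble (SD, n = 3 each), a log2 fold change of 0.16 ± 0.13 (SE, adjusted p = 0.694 in limma). As a ratio this is 1.12-fold, with a 95% confidence interval from 0.904 to 1.38. The mean over the 6 arrays, 9.68, was above that of 99.4% of genes, although brightness also depends on the probes.

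RefSeq lists 2 start sites for Cdkn1a, whose windows (250 bases before the start and 50 after, GRCm38.p6) are shown because MyoD and myogenin bind E-boxes, here the letters CANNTG searched on both strands. Capitals mark E-boxes and GC boxes (GGGCGG or its reverse complement). The upstream window is chr17:29090729-29091028 and the downstream window chr17:29093519-29093818, both on the + strand.
Cdkn1a upstream start: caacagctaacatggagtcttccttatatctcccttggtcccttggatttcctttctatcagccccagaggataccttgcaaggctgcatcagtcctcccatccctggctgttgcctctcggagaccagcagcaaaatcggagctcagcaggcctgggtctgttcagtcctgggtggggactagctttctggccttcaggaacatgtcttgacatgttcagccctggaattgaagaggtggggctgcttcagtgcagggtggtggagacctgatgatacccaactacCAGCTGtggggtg
Cdkn1a downstream start: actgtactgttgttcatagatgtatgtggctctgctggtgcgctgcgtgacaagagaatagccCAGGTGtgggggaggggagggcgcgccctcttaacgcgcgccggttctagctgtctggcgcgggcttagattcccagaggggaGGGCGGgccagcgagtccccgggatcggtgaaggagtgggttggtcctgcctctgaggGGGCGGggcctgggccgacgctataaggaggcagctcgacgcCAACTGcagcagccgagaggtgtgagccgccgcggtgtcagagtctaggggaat
The upstream window held 1 E-box, CAGCTG, and 0 GC boxes, and the downstream window held 2 E-boxes, CAGGTG and CAACTG, and 2 GC boxes. No matches overlapped each other. Over all 32851 windows of this length, 72.3% held an E-box and 35.7% a GC box, so these matches are a description of the letters only.

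Cdkn1b encodes p27, the inhibitor that holds quiescent cells out of the cycle and is removed through SKP2. It stood at 7.10, 7.11 and 7.24 in the Htt siRNA arrays, against 6.96, 6.75 and 7.18 in the scramble arrays. Scramble replicate 3 lay inside the Htt siRNA range and the other scramble arrays lay below it. The log2 fold change was 0.19 ± 0.12 (SE, adjusted p = 0.614 in limma), 1.14-fold with a 95% confidence interval from 0.936 to 1.39. Cdkn1b and Cdkn1a shared the order of their 3 scramble arrays and had their highest value in Htt siRNA replicate 3.

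Cdkn1c encodes p57, an imprinted inhibitor expressed in embryonic muscle. It stood at 2.26, 2.70 and 2.55 in the Htt siRNA arrays, against 2.34, 2.21 and 2.36 in the scramble arrays. Htt siRNA replicates 2 and 3 were above all scramble arrays, and replicate 1 lay among them. The log2 fold change was 0.20 ± 0.12 (SE, adjusted p = 0.596 in limma), with a 95% confidence interval of the fold from 0.941 to 1.40. Its 6-array mean of 2.40 was below the median of all gene means, 2.95, where RMA compresses differences, and the table holds no detection calls, so neither expression nor its absence is stated. Of 6 measured genes of the imprinted cluster and related imprinted genes listed with Cdkn1c, 0 had an unadjusted p under 0.05, against 10.9% of all genes. The 4 with the smallest p were the histone chaperone gene Nap1l4 (log2 fold change -0.21 ± 0.10), the potassium channel gene Kcnq1 (0.17 ± 0.11), the growth factor gene Igf2 (0.23 ± 0.19) and the imprinting RNA Kcnq1ot1 (-0.15 ± 0.14).

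Cdkn2a encodes 2 proteins from different first exons, the INK4 inhibitor p16 and the p53 activator ARF; the table does not say which exons the probe set covers, so they cannot be told apart. It stood at 2.92, 2.87 and 2.84 in the Htt siRNA arrays, against 2.81, 2.86 and 2.84 in the scramble arrays. The 6 arrays spanned 0.105 log2 units, the narrowest span of the 7 genes, and the 6-array mean of 2.86 was close to the median gene. The log2 fold change was 0.04 ± 0.08 (SE, adjusted p = 0.881 in limma). Cdkn2b, which encodes p15, the INK4 inhibitor that TGF-beta induces, stood at 3.10, 3.32 and 3.21 in the Htt siRNA arrays, against 3.29, 3.42 and 3.11 in the scramble arrays. Its groups interleaved, and its log2 fold change was -0.06 ± 0.11 (SE, adjusted p = 0.864 in limma), with the sign turned, at 0.0092, without scramble replicate 2. For both genes, values so near the median gene limit what a difference of this size can show.

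Cdkn2c encodes p18, an INK4 inhibitor. It stood at 4.61, 5.56 and 4.94 in the Htt siRNA arrays, against 5.02, 5.53 and 5.47 in the scramble arrays. Htt siRNA replicate 2 was the highest of all 6 arrays, while Htt siRNA replicates 1 and 3 lay below every scramble array. The mean was 5.04 ± 0.48 with Htt siRNA and 5.34 ± 0.28 with scramble (SD, n = 3 each), a log2 fold change of -0.30 ± 0.24 (SE, adjusted p = 0.691 in limma). The 95% confidence interval of the fold ran from 0.548 to 1.20. Without Htt siRNA replicate 2 the log2 fold change was -0.56 (adjusted p = 0.186 in limma), and without Htt siRNA replicate 1 it was -0.09.

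Cdkn2d encodes p19 of the INK4 family, a protein distinct from ARF. It stood at 5.31, 6.03 and 5.37 in the Htt siRNA arrays, against 5.51, 6.10 and 6.36 in the scramble arrays. As for Cdkn2c, Htt siRNA replicates 1 and 3 were the lowest arrays, scramble replicate 1 came next, and Htt siRNA replicate 2 lay with scramble replicates 2 and 3. The mean was 5.57 ± 0.40 with Htt siRNA and 5.99 ± 0.43 with scramble (SD, n = 3 each), a log2 fold change of -0.42 ± 0.26 (SE, adjusted p = 0.594 in limma). The interval of the fold, from 0.496 to 1.13, was the only one of the 7 that reached a 2-fold difference. Without Htt siRNA replicate 2 the log2 fold change was -0.65 (adjusted p = 0.226 in limma), without scramble replicate 1 it was -0.66, and without scramble replicate 3 it was -0.23.

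Cdkn2c and Cdkn2d varied together across the arrays, so the windows around their starts are shown with the same motifs in capitals. For Cdkn2c the upstream RefSeq start has the window chr4:109666707-109667006 and the downstream start chr4:109665323-109665622. For Cdkn2d there is the single window chr9:21291160-21291459, and all 3 are on the - strand in GRCm38.p6.
Cdkn2c upstream start: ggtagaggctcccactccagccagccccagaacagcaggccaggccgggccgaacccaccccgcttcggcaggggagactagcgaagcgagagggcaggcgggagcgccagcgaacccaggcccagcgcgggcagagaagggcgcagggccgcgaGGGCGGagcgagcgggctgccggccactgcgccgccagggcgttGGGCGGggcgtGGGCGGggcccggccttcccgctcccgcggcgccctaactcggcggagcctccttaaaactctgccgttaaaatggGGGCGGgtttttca
Cdkn2c downstream start: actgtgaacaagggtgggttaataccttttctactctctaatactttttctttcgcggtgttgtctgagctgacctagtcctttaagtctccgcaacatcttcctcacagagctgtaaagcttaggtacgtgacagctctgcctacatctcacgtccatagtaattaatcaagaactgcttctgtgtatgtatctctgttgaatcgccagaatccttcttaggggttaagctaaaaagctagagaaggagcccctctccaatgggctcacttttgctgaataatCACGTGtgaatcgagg
Cdkn2d start: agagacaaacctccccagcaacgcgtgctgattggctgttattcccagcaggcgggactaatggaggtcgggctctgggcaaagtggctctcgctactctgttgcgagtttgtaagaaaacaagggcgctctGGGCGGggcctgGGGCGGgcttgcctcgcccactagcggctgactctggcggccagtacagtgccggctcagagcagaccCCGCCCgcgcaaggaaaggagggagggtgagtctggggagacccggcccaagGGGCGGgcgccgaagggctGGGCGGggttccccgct
The upstream Cdkn2c window held 4 GC boxes and the Cdkn2d window 5, and these 2 windows held 0 E-boxes. The downstream Cdkn2c window held 0 GC boxes and 1 E-box, CACGTG. The letters TTTNNCGC, a form of the site that E2F factors bind, were searched on both strands and were found in none of the 3 windows; 5.17% of all windows held them. Among the 9 windows of 6 inhibitors, 7 held a GC box and 4 an E-box, against 35.7% and 72.3% of all windows. The E2F-type letters were in 2, both of Cdkn2a. Some genes gave more than 1 window, so these counts describe the letters only. For Cdkn1c no window is shown.

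Cdkn2d was the only inhibitor whose 6 arrays spanned at least 1 log2 unit (1.05). After each gene was centred on its 6-array mean, the genes nearest to it by root mean square distance, among the 11090 genes above the median level, were Cdk2, the S phase kinase (distance 0.083 log2 units over 6 arrays), the centromere protein gene Cenpl (0.088) and the prostaglandin receptor gene Ptger4 (0.091). Cdk2 stood at 6.43, 7.17 and 6.49 in the Htt siRNA arrays, against 6.71, 7.45 and 7.58 in the scramble arrays. In all 3 of these genes, Htt siRNA replicates 1 and 3 and scramble replicate 1 were the lowest arrays, as for Cdkn2d.

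**Figure D2:**
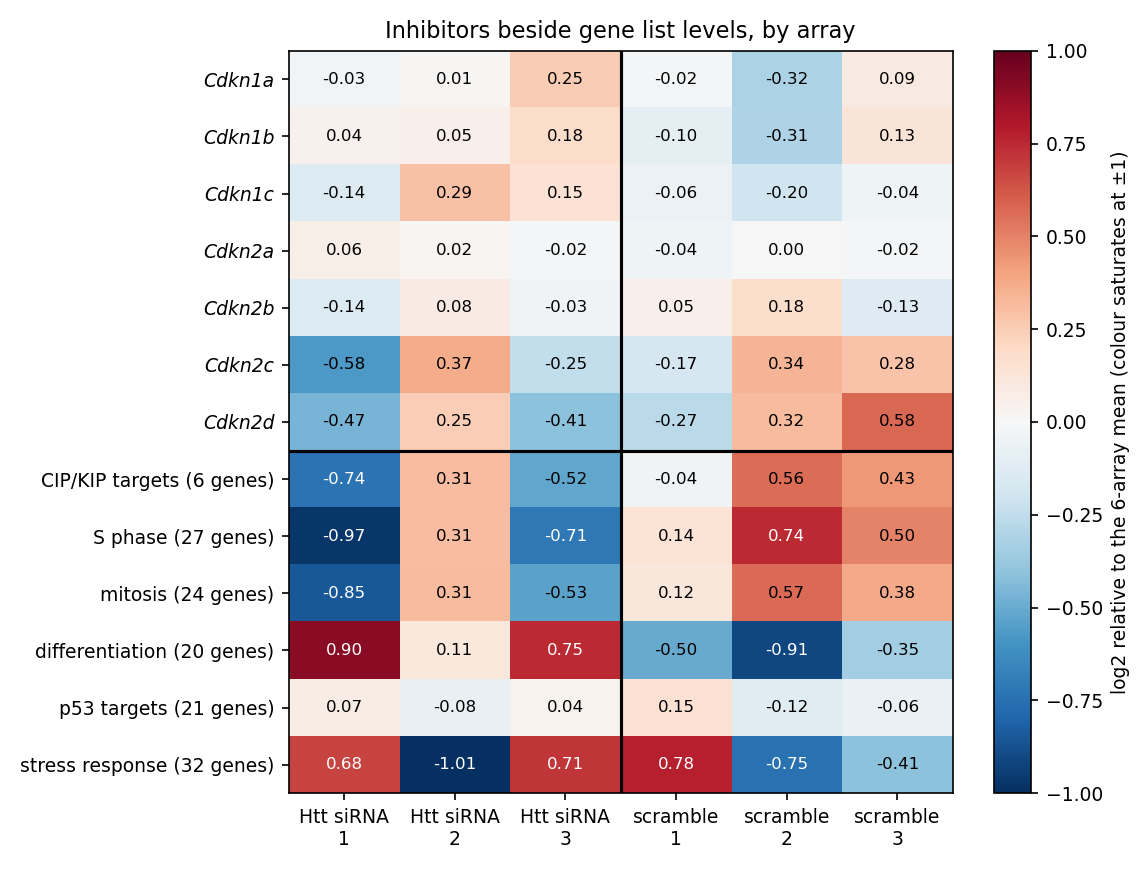
Log2 values relative to the 6-array mean, with arrays in columns (Htt siRNA left, scramble right), for the 7 inhibitors and for the mean of each gene list. Cdkn2c and Cdkn2d are below their mean in Htt siRNA replicates 1 and 3 and scramble replicate 1 and above it in the other 3 arrays, while Cdkn1a ranges only from -0.32 to 0.25.

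Levels of proliferation genes, like Cdkn2c and Cdkn2d, were below their 6-array mean in Htt siRNA replicates 1 and 3. Unlike Cdkn2c and Cdkn2d, they were above it in scramble replicate 1. Relative to the 6-array mean, the level of 27 S phase genes was -0.97, 0.31 and -0.71 in Htt siRNA replicates 1, 2 and 3, against 0.14, 0.74 and 0.50 in scramble replicates 1, 2 and 3. The level of 24 mitosis genes was -0.85, 0.31 and -0.53 with Htt siRNA, against 0.12, 0.57 and 0.38 with scramble. Of the 27 S phase genes 23, and of the 24 mitosis genes 18, were lower at an unadjusted p under 0.05, against 5.14% of all genes. Their medians were -0.92 and -0.68, and 0 were higher at that p. All gene lists here were chosen with earlier results of these data known, so such counts only describe the listed genes. The median of the mitosis genes was -1.03 after Htt siRNA replicate 2 was left out and -0.45 after replicate 1 of that group was. Htt siRNA replicate 2 lay between scramble replicate 1 and the other scramble arrays in both lists. The level of 32 genes of the unfolded protein and integrated stress response also varied, at 0.68, -1.01 and 0.71 with Htt siRNA, against 0.78, -0.75 and -0.41 with scramble. Of these 32 genes, 1 was higher and 0 lower at an unadjusted p under 0.05, against 5.72% and 5.14% of all genes. The 3 arrays with the higher stress level were the 3 with the lower Cdkn2c and Cdkn2d values. Without a covariate their log2 fold changes were -0.30 ± 0.24 and -0.42 ± 0.26 (SE). With the stress level of each array added to limma as a covariate they were -0.20 ± 0.11 and -0.31 ± 0.12. The adjusted p-values of that limma fit were 0.521 and 0.336. The stress term itself was not tested, nor was the part of the S phase and mitosis lists in the inhibitors' values.

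The kinases that the inhibitors act on were examined together with their cyclins and Pcna, in lists called targets here. Cdk4, Cdk6 and the D-type cyclins make up the INK4 targets. Of 5 INK4 targets, 0 passed limma over all genes, and the median log2 fold change was -0.04. At an unadjusted p under 0.05, 1 was lower and 0 higher, against 5.14% and 5.72% of all genes. Cdk4 stood at 9.58, 9.64 and 9.62 with Htt siRNA, against 9.66, 9.58 and 9.61 with scramble, and its log2 fold change was -0.01 ± 0.08. Cdk6 had a value of -0.04 ± 0.11. Among the D-type cyclins, Ccnd1, the one that serum induces in dividing myoblasts, stood at 6.83, 7.86 and 6.77 with Htt siRNA, against 7.496, 8.39 and 8.31 with scramble. Its log2 fold change was -0.91 ± 0.34 (SE, adjusted p = 0.416 in limma), and the groups overlapped through Htt siRNA replicate 2. Ccnd2 had a value of -0.07 ± 0.32, and Ccnd3, the D-type cyclin retained in myotubes, 0.27 ± 0.18.

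All 6 measured CIP/KIP targets had negative log2 fold changes, with a median of -0.63, while 9261 of all 22180 genes were negative. Of the 6, 3 were lower at an unadjusted p under 0.05, against 5.14% of all genes, and 0 passed limma's adjusted threshold. Ccna2, the cyclin of S phase and G2, stood at 8.18, 9.40 and 8.37 with Htt siRNA, against 9.23, 9.56 and 9.41 with scramble, a log2 fold change of -0.75 ± 0.29 (adjusted p = 0.43 in limma). The mitotic kinase gene Cdk1 had a value of -0.73 ± 0.31, and Pcna, the replication clamp that p21 also binds, -0.66 ± 0.26. Ccne1, the cyclin of S phase entry, had -0.60 ± 0.33, Cdk2 -0.55 ± 0.27 and the mitotic cyclin gene Ccnb2 -0.52 ± 0.26. In each of the 6, Htt siRNA replicates 1 and 3 were the lowest arrays.

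**Figure D3:**
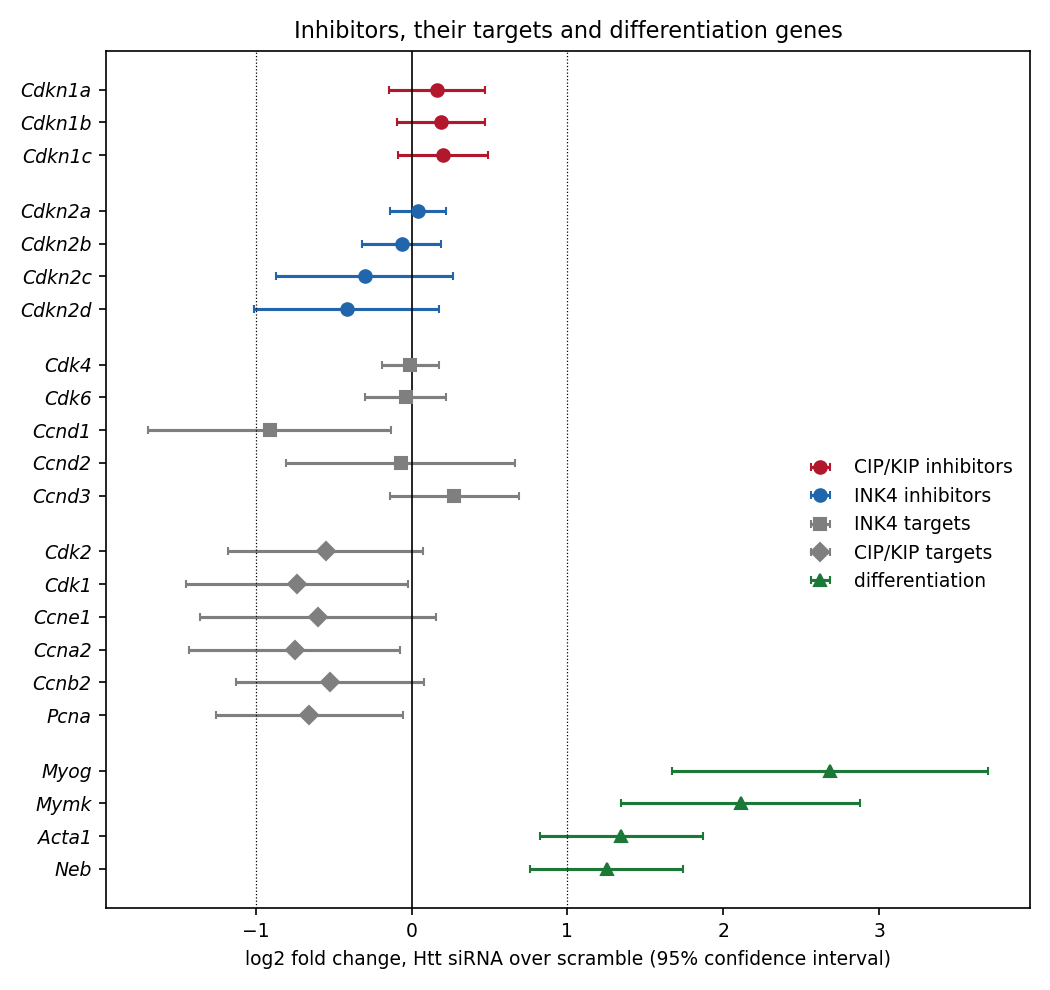
Log2 fold changes, Htt siRNA over scramble, with 95% confidence intervals from limma (n = 3 each). Shown are the inhibitors, their target lists (kinases, cyclins and Pcna), and the 4 differentiation genes with the smallest p. Dotted lines mark a 2-fold difference. All 7 inhibitor intervals include 0, and the Myog interval, from 1.67 to 3.70, lies above the whole range of the inhibitors.

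Downstream of the kinases, 13 retinoblastoma family and E2F genes had a median of -0.26. At an unadjusted p under 0.05, 3 were lower and 0 higher, against 5.14% and 5.72% of all genes. Leaving out Htt siRNA replicate 2 put that median at -0.50, and leaving out replicate 3 of the same group put it at -0.16. The retinoblastoma relative Rbl1 (p107) had a log2 fold change of -0.97 ± 0.35, the repressor E2f6 -0.74 ± 0.24, the activator E2f3 -0.56 ± 0.21 and the E2F partner Tfdp1 -0.50 ± 0.22. The highest value among them was 0.28 for Rb1. The 10 genes for turnover of the inhibitor proteins had a median of -0.09 (-0.05 without Htt siRNA replicate 3). Of these, 1 was lower at an unadjusted p under 0.05, against 5.14% of all genes. That gene was Dtl, the adaptor that marks p21 for degradation in S phase, at 4.96 ± 0.94 with Htt siRNA and 6.19 ± 0.45 with scramble (SD, n = 3 each), overlapping through Htt siRNA replicate 2 (-1.23 ± 0.44, adjusted p = 0.404 in limma). Next by p in that list were the ligase scaffold Cul4b (-0.25 ± 0.14), Cks1b, which helps SKP2 take up p27 (-0.25 ± 0.15), and the signalosome subunit Cops5 (-0.10 ± 0.08).

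The 22 genes that control transcription of the inhibitors had a median of 0.00. Of these, 2 were higher and 1 lower at an unadjusted p under 0.05, near the 5.72% and 5.14% of all genes. Ezh2, the Polycomb methyltransferase that represses the Cdkn2a locus, stood at 6.25, 7.09 and 6.31 with Htt siRNA, against 7.15, 7.47 and 7.15 with scramble (-0.70 ± 0.22, adjusted p = 0.387 in limma), without overlap. Myod1, whose product induces p21, stood at 6.27, 6.48 and 6.99 with Htt siRNA, against 5.36, 6.15 and 6.27 with scramble. The lowest Htt siRNA array and the highest scramble array both rounded to 6.27, and the groups did not overlap (0.66 ± 0.27, adjusted p = 0.438 in limma). The p53 relative Trp73 had a value of 0.39 ± 0.13 and the Polycomb gene Cbx7 0.40 ± 0.19. Of 21 measured p53 targets other than Cdkn1a (median -0.05), 1 was higher and 0 lower at an unadjusted p under 0.05, near the same shares. They included the apoptosis gene Pmaip1 (0.61 ± 0.18), the p53 ligase gene Mdm2 (-0.28 ± 0.13), the DNA polymerase gene Polk (-0.21 ± 0.12) and the antiproliferative gene Btg2 (0.33 ± 0.19).

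Beside the inhibitors stand the muscle genes whose expression accompanies cell cycle exit in myogenesis. Of 20 differentiation genes, 18 were higher and 0 lower at an unadjusted p under 0.05, against 5.72% of all genes higher. The list was chosen with earlier results of these data known, so this count only describes it. The median log2 fold change was 1.15, and the 4 genes with the smallest p were Mymk, Myog, Acta1 and Neb. Myog, which encodes the myogenic factor myogenin, stood at 7.73, 6.22 and 7.71 with Htt siRNA, against 4.53, 3.97 and 5.11 with scramble, with no overlap (2.68 ± 0.44, adjusted p = 0.169 in limma). Within each array, Myog minus Cdkn1a averaged -2.54 ± 0.82 with Htt siRNA and -5.06 ± 0.37 with scramble (SD, n = 3 each). The groups did not overlap in this difference of 2.52 log2 units, and the exact two-sided permutation p of 0.1 is the smallest that 3 against 3 arrays can give. Myog minus Cdkn1c differed by 2.48 log2 units between the groups (exact two-sided permutation p = 0.1), and Cdkn1a minus Cdkn2d by 0.58 (exact two-sided permutation p = 0.2). Adjusted over these 3 comparisons the exact permutation p-values were 0.15, 0.15 and 0.2. Over the 6 arrays Cdkn1a spanned 0.57 and Cdkn1c 0.49 log2 units, less than the gap between the Myog groups, from 5.11 to 6.22. Both differences with Myog were therefore bound not to overlap, with an exact permutation p of 0.1. They restate the difference of Myog and add nothing about the inhibitors. In bulk RNA, fewer cells that express a gene and less of its RNA per cell cannot be told apart.

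Markers of other cell types were read beside the muscle genes, fibroblasts first. The matrix proteoglycan gene Dcn stood at 7.74, 6.67 and 7.25 with Htt siRNA, against 5.96, 5.05 and 5.59 with scramble, a log2 fold change of 1.69 ± 0.30 (adjusted p = 0.184 in limma). The collagen gene Col1a1 had a value of 1.17 ± 0.23 (adjusted p = 0.236 in limma) and the receptor gene Pdgfra -0.26 ± 0.11 (adjusted p = 0.437 in limma). The groups did not overlap in any of these 3 genes, as in 16.0% of all genes. Of the 6 fibroblast markers, 2 were higher and 1 lower at an unadjusted p under 0.05, against 5.72% and 5.14% of all genes. The mean level of the list ranged from 4.21 to 4.47 with Htt siRNA and from 3.75 to 3.99 with scramble. The other 3 had values of 0.27 for Pi16, 0.01 for Lum and 0.04 for Thy1, and all 3 averaged below the median gene mean of 2.95 in both groups. Of 6 neuron markers, 1 was higher (Map2, 0.31 ± 0.13) and 1 lower at an unadjusted p under 0.05, beside the same shares. The lower one was the neurofilament gene Nefl, which stood at 6.34, 8.28 and 6.81 with Htt siRNA, against 8.29, 9.01 and 8.76 with scramble (-1.54 ± 0.45, adjusted p = 0.364 in limma). The level of the neuron list ranged from 4.81 to 5.36 with Htt siRNA and from 5.17 to 5.26 with scramble. The part of these markers in the values of the inhibitors and of the muscle genes was not tested.

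**Figure D4:**
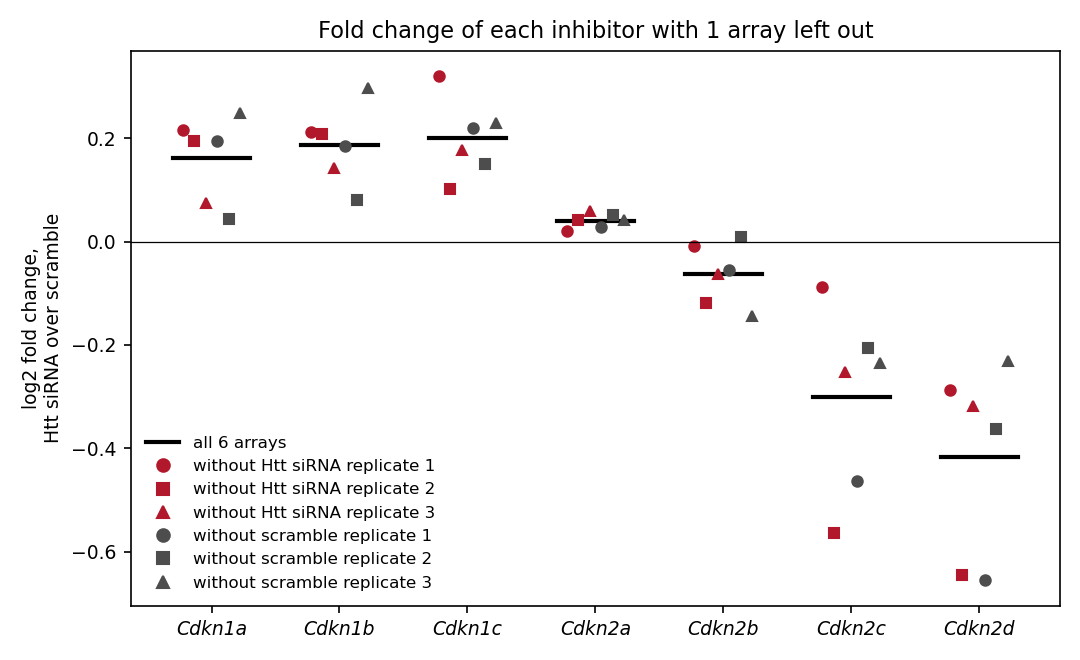
Log2 fold change (Htt siRNA over scramble) of each inhibitor with all 6 arrays (line) and with each array left out in turn (points; Htt siRNA arrays red, scramble arrays grey). Values lie between 0.04 and 0.32 for the CIP/KIP genes and between -0.66 and -0.09 for Cdkn2c and Cdkn2d, and Cdkn2b crosses 0.

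Leaving out arrays moved the sizes more than the signs. The log2 fold change of Cdkn1a lay between 0.04 (without scramble replicate 2) and 0.25 (without scramble replicate 3), that of Cdkn1b between 0.08 and 0.30, and that of Cdkn1c between 0.10 (Htt siRNA replicate 2 left out) and 0.32 (Htt siRNA replicate 1 left out). In each of these fits 0 of 7 inhibitors passed limma's adjusted threshold, and after removal of Htt siRNA replicate 2, when 540 genes passed over all genes, the lowest adjusted p among them was 0.186, for Cdkn2c. At an unadjusted p under 0.05, with no adjustment for the number of genes, there were 2 inhibitors without Htt siRNA replicate 2 (Cdkn2c and Cdkn2d, both lower). There was 1 without Htt siRNA replicate 1 (Cdkn1c, higher), 1 without scramble replicate 1 (Cdkn2d, lower), 1 without scramble replicate 3 (Cdkn1b, higher) and 0 without either remaining array.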

How the data were processed

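Per the labels, total RNA of 6 C2C12 samples was hybridised to 6 Affymetrix arrays. The authors deposited log2 values for 41345 probe sets; the submitters' processing notes name RMA and the affy package, without versions, and no genome build is given in the sources used here. Array medians lay between 2.59 and 2.67. The number of arrays limits the precision. Symbols came from the platform annotation: 23521 probe sets had 1 symbol, 1814 had several and 16010 are unnamed here. The brightest single-symbol probe set over the 6 arrays stood for each of 22180 genes. Limma 3.58.1 in R 4.3.3 (lmFit, eBayes, group as the only term, two-sided, Benjamini-Hochberg over all genes) gave the differences. On simulated data it recovered 81% of 100 changes of 1 log2 unit and 98% of 100 changes of 2, with 7 false calls. The simulated noise was independent for each gene, whereas real genes varied together across the arrays, so these rates need not hold here. Figures used Python 3.11.15 and matplotlib 3.10.9.

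The members, the 20 gene lists and the naming rule were chosen with earlier results of these data known. The rule names all members, Htt, every INK4 and CIP/KIP target, and up to 4 genes with the smallest p of each other list. It also names the 3 genes nearest to any member spanning at least 1 log2 unit. Rb1, Lum, Thy1 and the other Cdkn genes lie outside it and were picked with their values in view. Des lies within it, but was likewise picked from its list with its values in view. List levels are means of the measured members per array. Promoter windows are RefSeq's, GRCm38.p6, found for 6 of the 7 members. Replicate numbers are shared by the groups; deviations of same-numbered arrays correlated across genes with r = 0.35, 0.36 and 0.01, so the numbers were not taken as pairs. Alternatives left out each array in turn, added a replicate block or a stress covariate, centred or re-normalized arrays, dropped dim genes, weighted arrays, averaged probe sets or used an intensity trend.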

Additional observations from a re-analysis of the deposited data

How the results depend on the processing

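None of the 7 inhibitors passed limma's adjusted threshold under any of the 14 alternatives, and their lowest adjusted p was 0.186. At an unadjusted p under 0.05 there were 0 inhibitors in the fit of all arrays and in 8 of the 14 alternatives, and 1 or 2 in the other 6: 0 to 2 with 1 array left out, and Cdkn2d alone with array weights (log2 fold change -0.57) and with the stress covariate (-0.31). Of 96 values for single inhibitors under the alternatives, 95 kept their direction, and the exception was Cdkn2b, which lay between -0.14 and 0.0092 with 1 array left out and was above 0 only without scramble replicate 2; with 2 members below the median gene level, that filter gave no value for Cdkn1c or Cdkn2a. Htt's log2 fold change lay between -1.16 and -1.06 with 1 array left out (adjusted p from 0.00778 to 0.348), and it passed the threshold at -1.10 with the replicate block, -1.13 with centred arrays, -1.04 with repeated quantile normalization, -1.10 among genes above the median level, -1.11 with weighted arrays and -1.11 with the stress covariate. The number of genes past the threshold was 0 to 540 with 1 array left out, 98 with the replicate block, 81 with the stress covariate, 3 with centred arrays, 3 with repeated quantile normalization, 3 above the median level, 1 with array weights and 2 with an intensity trend. Of the listed genes other than the inhibitors, 0 passed in the fit of all arrays, 0 to 58 passed with 1 array left out, 13 with the replicate block and 17 with the stress covariate. With 1 array left out, median log2 fold changes lay between -1.34 and -0.64 for S phase genes, -1.03 and -0.45 for mitosis genes, -0.93 and -0.44 for CIP/KIP targets, -0.50 and -0.16 for retinoblastoma family and E2F genes, and 0.89 and 1.42 for differentiation genes. The medians of INK4 targets (-0.07 to 0.01), p53 targets (-0.06 to 0.01) and transcription genes (-0.08 to 0.03) changed sign. The cause of these differences was not tested. The replicate block rests on numbers that paired the arrays only in part. Htt siRNA replicates 1 and 2 correlated most with the scramble arrays of the same number (r = 0.35 and 0.36). Htt siRNA replicate 3 correlated most with scramble replicate 1 (r = 0.22). With the block, Cdkn2c and Cdkn2d had unadjusted p-values of 0.0520 and 0.0532 in limma, and adjusted p-values of 0.368 and 0.371. Signals near the median gene limit what can be said of Cdkn1c, Cdkn2a and Cdkn2b.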

Other observations

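Some genes share the Cdkn symbol without being inhibitors of the INK4 or CIP/KIP families, and were looked at after the inhibitors' values were seen. Cdkn3, a phosphatase that acts on CDKs and is itself made in dividing cells, stood at 4.53, 5.09 and 4.41 with Htt siRNA, against 4.87, 5.25 and 5.16 with scramble. Its log2 fold change was -0.42 ± 0.19 (SE, adjusted p = 0.476 in limma), and the groups overlapped through Htt siRNA replicate 2. Cdkn2aip, whose protein binds ARF, had a value of 0.19 ± 0.16, and the related gene Cdkn2aipnl -0.37 ± 0.16 (adjusted p = 0.458 in limma).

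Among markers of other cell types, 0 passed limma's adjusted threshold. The lists of 6 endothelial, 6 macrophage and 6 adipocyte genes had median log2 fold changes of 0.07, 0.03 and 0.07, and that of 5 epithelial genes -0.01. At an unadjusted p under 0.05, the case for 10.9% of all genes, 0 endothelial genes differed. Of the macrophage genes, Lyz2 was higher (0.51 ± 0.14) and Cd68 lower (-0.39 ± 0.14). The adipocyte gene Cidec was higher (0.52 ± 0.12) and the epithelial keratin gene Krt14 lower (-0.53 ± 0.18). The mean level of the macrophage list ranged from 2.61 to 2.68 with Htt siRNA and from 2.59 to 2.61 with scramble, that of the endothelial list from 2.30 to 2.36 with Htt siRNA and from 2.20 to 2.27 with scramble. The epithelial list ranged from 3.01 to 3.14 with Htt siRNA and from 3.08 to 3.20 with scramble, and the adipocyte list from 2.91 to 3.06 with Htt siRNA and from 2.87 to 3.00 with scramble. Their part in the inhibitors' values was not tested.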
